A study of Mus musculus with 36 samples.

Results

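The genes described here code for 3 families of enzymes that join a polar group to drugs, steroids, bilirubin, bile acids and reactive by-products so that these can leave the body. Members were chosen by name alone, as every probe set with 1 gene symbol beginning with Ugt1, Ugt2, Ugt3, Gsta, Gstm, Gstp, Gstt, Gsto, Gstk, Gstz or Sult. This gave 43 genes of the 18193 that had such a probe set, of which 10 were UDP-glucuronosyltransferases (UGT), 20 glutathione S-transferases (GST) and 13 sulfotransferases (SULT). No member had a symbol starting with Ugt1 (0 of 43). The 43 genes had 54 probe sets, and each gene was represented by its brightest probe set in liver, by the mean of the arrays. The other 11, which belong to 9 genes, are given where they differed. A further 5 probe sets of these families carried several symbols and were left out.

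RNA from liver and whole brain was hybridised to 36 Affymetrix arrays. The groups were sleep-deprived and control male mice of AKR/J, DBA/2J and C57BL/6J, 3 inbred strains with no engineered allele, all aged 12 to 13 weeks. Sleep-deprived mice were kept awake for 6 h from light onset. By the array titles, both they and the undisturbed controls were killed 6 h after light onset. For AKR/J controls 2 and 3 of each tissue (4 arrays) the source name gives 0 h instead, a conflicting time label. If the source name is right, time of day cannot be told apart from strain or sleep deprivation in comparisons with these arrays. Each of the 12 groups (2 tissues by 3 strains by 2 conditions) had 3 arrays, each a pool of RNA from 3 mice, so the spread given is that between pools. Values are log2 expression values from RMA, a method that corrects background, equalises the distributions of arrays and summarises the probes of a probe set, and the number of arrays limits their precision. Array medians were 4.05 to 4.14 in liver and 4.74 to 4.86 in brain, which points to separate normalisation of the tissues, so only changes, not levels, were compared between them. All 9 measured hepatocyte markers lay above the tissue median in liver and 6 of the 9 below it in brain. In bulk RNA, fewer cells of a type and less RNA per cell cannot be told apart.

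UGT enzymes sit in the endoplasmic reticulum and transfer a sugar, for most Ugt2 enzymes glucuronic acid from UDP-glucuronic acid. GST enzymes, most of them in the cytosol, couple the tripeptide glutathione to electrophiles, and SULT enzymes transfer sulfonate from the donor PAPS. Liver is the main site of all 3 reactions, and hepatocytes carry most of these enzymes. Many of the genes arose by local duplication. By the RefSeq gene order, 11 members lay in 1 run on chromosome 5, in which Ugt2b34, Ugt2b1, Ugt2b35, Ugt2b36, Ugt2b5, Ugt2b37, Ugt2a3 and Ugt2b38 were followed, after 2 other genes, by Sult1b1, Sult1d1 and Sult1e1. On chromosome 3, 7 Gstm genes were neighbours, and on chromosome 10, 4 Gstt genes were. Near-identical copies can share probes, so the values of single Ugt2b, Gstm, Gsta and Gstp genes carry that uncertainty.

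The Ugt2b run holds the member whose expression moved farthest with sleep deprivation, Ugt2b35, between neighbours that did not pass the test. The upstream sequences of Ugt2b35 and of the genes on each side of it are therefore shown, as the 250 bases before the gene start, 5′ to 3′ on the gene's strand, from RefSeq (GRCm38.p6). Capitals mark the longest stretch that all 3 shared without a gap and with at most 1 differing base. Ugt2b35 lies at chr5:87000610-87000859 on the plus strand, Ugt2b1 at chr5:86926504-86926753 on the minus strand and Ugt2b36 at chr5:87092556-87092805 on the minus strand.
Ugt2b35: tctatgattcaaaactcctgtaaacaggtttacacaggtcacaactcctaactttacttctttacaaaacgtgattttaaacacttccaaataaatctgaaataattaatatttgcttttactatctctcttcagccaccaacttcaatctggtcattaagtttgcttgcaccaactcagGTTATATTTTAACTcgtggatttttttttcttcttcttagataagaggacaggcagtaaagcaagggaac
Ugt2b1: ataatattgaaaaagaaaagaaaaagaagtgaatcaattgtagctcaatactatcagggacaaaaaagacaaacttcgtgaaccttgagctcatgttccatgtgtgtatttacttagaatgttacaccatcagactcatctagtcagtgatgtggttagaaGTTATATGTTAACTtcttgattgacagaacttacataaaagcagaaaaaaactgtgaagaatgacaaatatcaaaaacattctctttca
Ugt2b36: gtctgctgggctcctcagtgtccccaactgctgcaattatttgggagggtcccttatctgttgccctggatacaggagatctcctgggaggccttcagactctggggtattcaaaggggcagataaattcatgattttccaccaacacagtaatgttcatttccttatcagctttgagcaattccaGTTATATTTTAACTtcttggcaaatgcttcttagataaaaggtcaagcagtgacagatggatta

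The shared stretch, GTTATATNTTAACT, starts at position -70 from the start of Ugt2b35, -89 of Ugt2b1 and -64 of Ugt2b36. It was searched for after these sequences had been compared. On both strands it occurred in 3 of 32851 mouse promoters (0.00913%, in windows from 250 bases before to 50 after the start), and these were the 3 shown. Those 3 matches were fixed in advance, since the stretch was taken from these sequences. A promoter that differs from it at a position other than N was not counted. RefSeq promoters were found for 38 of the 43 members. The clock-output D-box, searched as TTATGNAA on both strands, was found in the Ugt2b1 sequence at position -59 and not in the other 2, and it was present in 3.39% of all promoters. The E-box CACGTG was not found on either strand of the 3 sequences, and 7.15% of all promoters hold it. The TATA box TATAAA was not found in them either, and 13.6% hold it. A match is a description of letters, its absence covers only these windows, and binding was not measured.

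**Figure D1:**
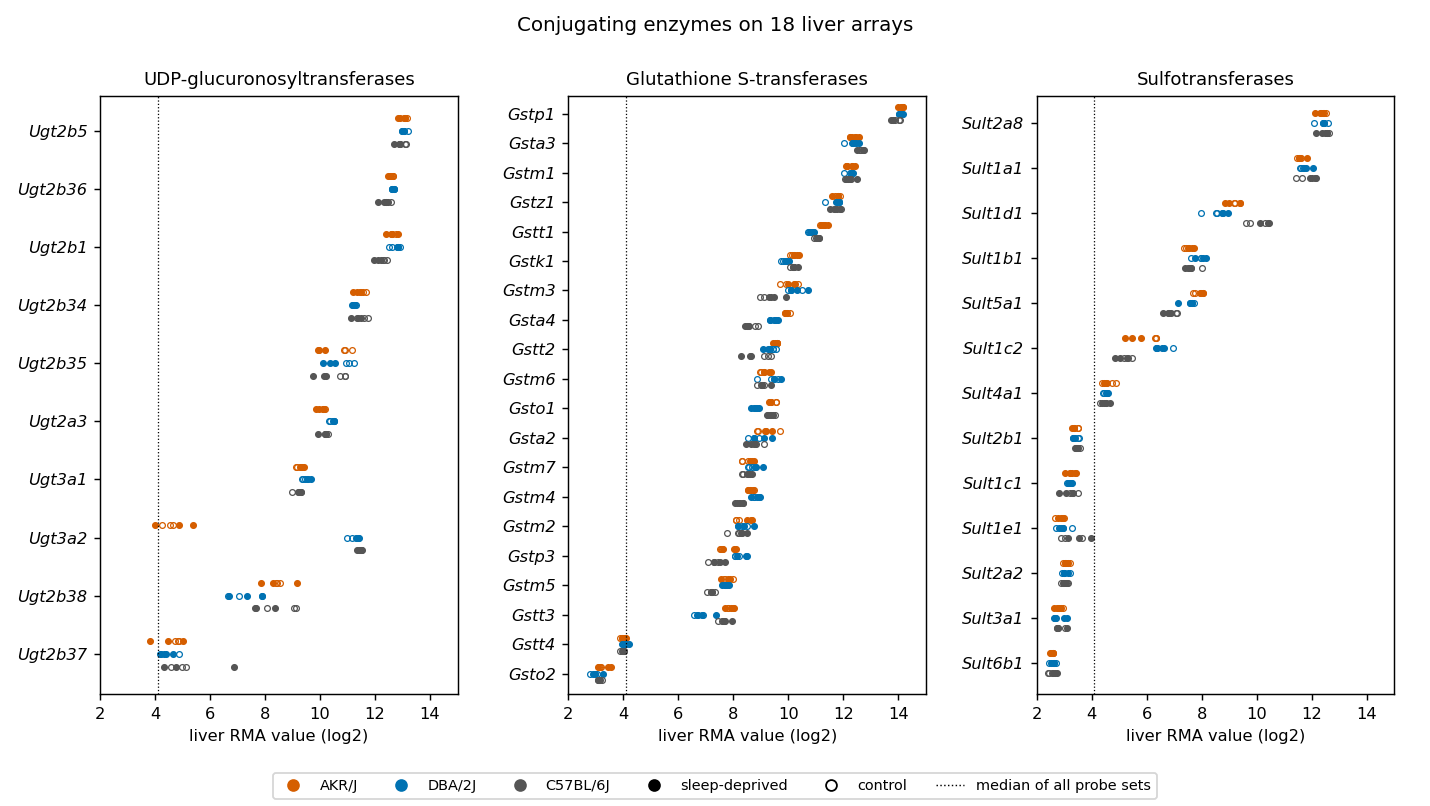
Log2 RMA values of the 43 genes on 18 liver arrays, 1 point per array, filled for sleep-deprived and open for control mice, coloured by strain, with the median of all probe set means (4.10) as a dotted line. Signals of different probe sets cannot be set against each other; the spread along each row can, and the AKR/J points of Ugt3a2 lie apart from those of the other strains.

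In liver, 35 of the 43 members had a mean signal above the median of all probe sets (4.10). These were 10 of 10 UGT, 18 of 20 GST and 7 of 13 SULT genes. The brightest probe sets averaged 14.03 for Gstp1, 12.45 for Gsta3 and 12.24 for Gstm1 among the GST genes, and 13.00 for Ugt2b5, 12.54 for Ugt2b36 and 12.53 for Ugt2b1 among the UGT genes. Among the SULT genes they were Sult2a8, a bile acid sulfotransferase, at 12.41, the phenol sulfotransferase Sult1a1 at 11.74 and Sult1d1 at 9.29. In brain, 18 members lay above that tissue's median (4.77), namely 0 of 10 UGT, 14 of 20 GST and 4 of 13 SULT genes. Gstp1 (11.17), Gstm5 (10.47) and Sult4a1 (10.01), a SULT known for its expression in neurons, were the brightest of their probe sets there.

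The first question was how far the strains differ in these enzymes in undisturbed liver. An adjusted p under 0.05 from limma, corrected over all 45037 probe sets, counts as a call. Between AKR/J and C57BL/6J controls, 8 of 43 members were called (18.6%), against 5.09% of all probe sets tested and 10.2% of genes above the liver median. Between DBA/2J and C57BL/6J controls, 13 were called (30.2%), against 5.57% and 11.2%. Between DBA/2J and AKR/J controls, 8 were called (18.6%), against 4.21% and 8.25%. The comparisons share arrays, since each group enters 2 of them. Without AKR/J control 3 the AKR/J minus C57BL/6J count was 5. Without the 2 AKR/J controls of conflicting time label it was 4, and that of DBA/2J minus AKR/J was 3. GST genes made up 9 of the 13 calls of DBA/2J against C57BL/6J, with 5 higher and 4 lower of 20 (3.34% and 2.23% of all probe sets). The median absolute log2 difference of members there was 0.22, against 0.11 over all probe sets.

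Ugt3a2 had the widest gap of the members. It belongs to the UGT3 enzymes, whose human members use sugars other than glucuronic acid. In AKR/J livers it read 3.99, 4.86 and 5.38 after sleep deprivation and 4.24, 4.55 and 4.67 in controls. In DBA/2J livers it read 11.31, 11.39 and 11.40 after sleep deprivation and 10.99, 11.17 and 11.34 in controls. In C57BL/6J livers it read 11.52, 11.41 and 11.36 after sleep deprivation and 11.45, 11.49 and 11.48 in controls. Every AKR/J array lay more than 5 units below every array of the other strains, and the AKR/J signals were close to the median of all probe sets. The control difference was -6.99 ± 0.22 (SE) for AKR/J minus C57BL/6J (adjusted p = 4.148e-14), and 6.68 ± 0.22 for DBA/2J minus AKR/J (9.837e-14). No fold is given, since at that signal it would be at most a lower bound. The first difference was -7.23 when the 2 AKR/J controls with conflicting time labels, numbers 2 and 3, were left out.

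Ugt3a1, the gene next to Ugt3a2 on chromosome 15, did not follow it. Its AKR/J controls read 9.29, 9.12 and 9.15, against 8.98, 9.26 and 9.23 in C57BL/6J controls, and these ranges overlap. The difference was 0.03 ± 0.09 (SE; adjusted p = 0.9211). Ugt3a2 was measured by 1 probe set, and whether a sequence difference under its probes lowers the AKR/J signal was not tested.

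**Figure D2:**
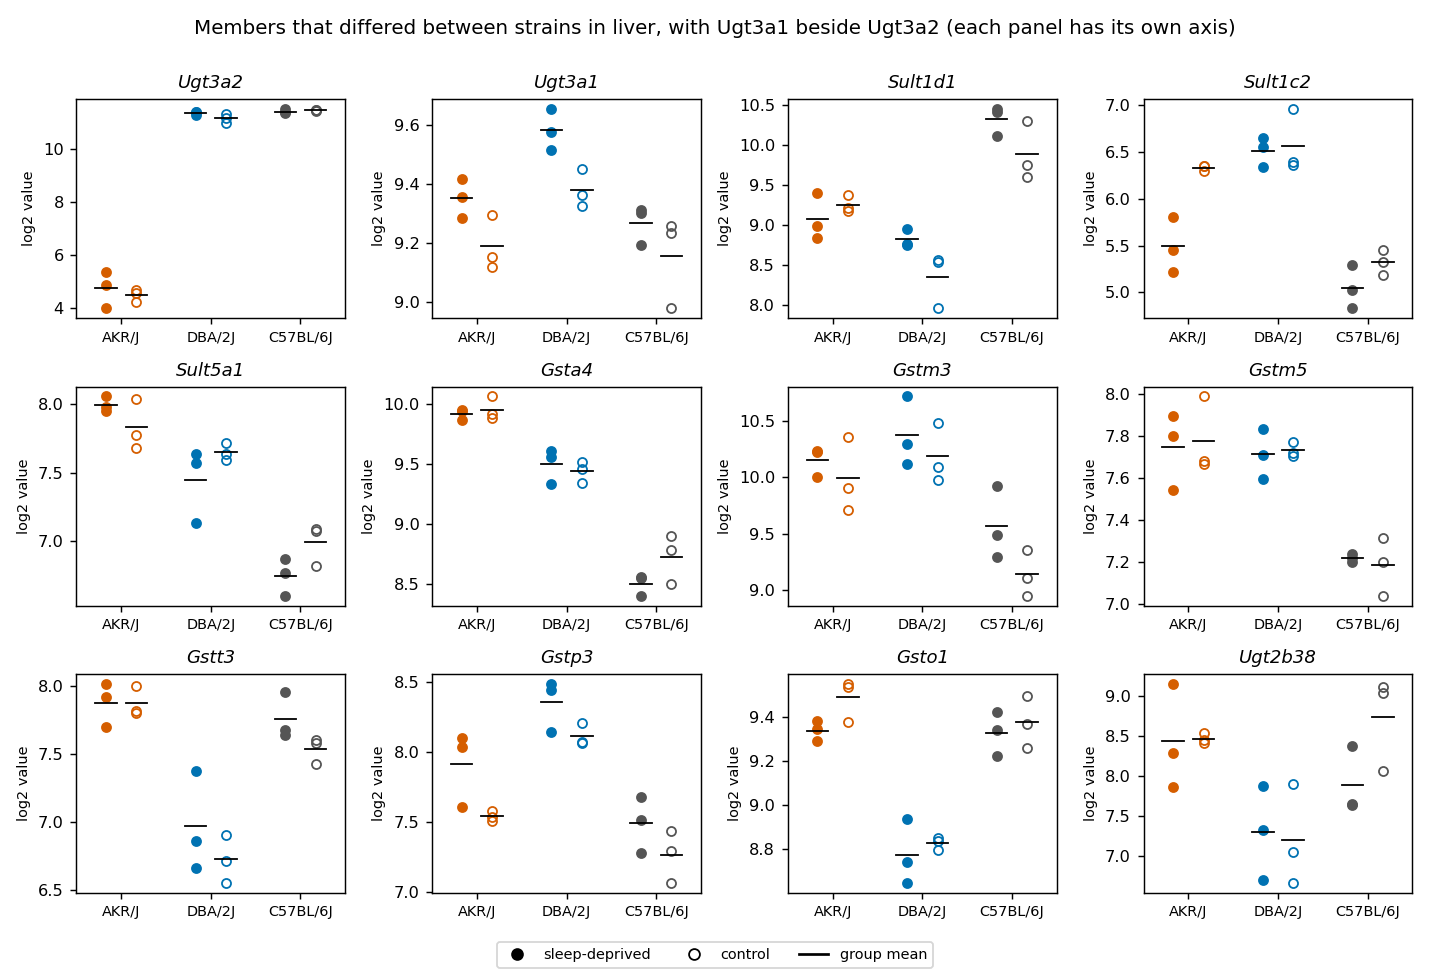
Log2 values of 12 members in liver, 1 point per array (filled, sleep-deprived; open, control), with group means as lines and strains from left to right; each panel has its own axis. The AKR/J points of Ugt3a2 lie near 4 to 5 while those of the other strains lie near 11, and Ugt3a1 beside it shows no such gap.

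Of the other UGT genes, Ugt2b38 was lower in DBA/2J. Its controls read 7.04, 6.66 and 7.89 in DBA/2J livers and 8.07, 9.12 and 9.04 in C57BL/6J livers. The ranges did not overlap but were wide, and the difference was -1.54 ± 0.36 (SE; adjusted p = 0.0124). The call was lost without DBA/2J control 2, C57BL/6J control 2 or C57BL/6J control 3, and with a variance trend, with adjusted p up to 0.0735 over the alternatives. The other 7 Ugt2 genes were not called between control livers by their brightest probe sets. The second probe set of Ugt2b34 was lower in DBA/2J than in AKR/J (-0.54, 0.0068).

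Among the GST genes, Gsta4 separated all 3 strains. This alpha-class enzyme conjugates 4-hydroxynonenal, a product of lipid peroxidation. Its control values were 9.88, 9.92 and 10.06 in AKR/J livers, 9.46, 9.34 and 9.52 in DBA/2J livers and 8.78, 8.90 and 8.50 in C57BL/6J livers, with no overlap between any pair of strains. The differences were 1.23 ± 0.10 (SE) for AKR/J minus C57BL/6J (adjusted p = 2.008e-07), 0.71 for DBA/2J minus C57BL/6J (1.884e-04) and -0.51 for DBA/2J minus AKR/J (0.0052). The last call was lost without the 2 AKR/J controls of conflicting time label (adjusted p = 0.2402), where 1 AKR/J control is left.

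Of the 7 mu-class genes on chromosome 3, 3 were higher in both AKR/J and DBA/2J than in C57BL/6J. Gstm3 read 9.71, 9.90 and 10.36 in AKR/J controls, 9.98, 10.09 and 10.48 in DBA/2J controls and 9.36, 9.11 and 8.95 in C57BL/6J controls, the last below all others. It was higher by 0.85 ± 0.19 (SE) in AKR/J (adjusted p = 0.0102) and by 1.05 ± 0.19 in DBA/2J (0.0016). Its second probe set gave 0.60 and 0.78, both called. Gstm4 was higher by 0.40 for AKR/J (0.0257) and 0.58 for DBA/2J (0.0012). Gstm5 was higher by 0.59 for AKR/J (0.0018) and 0.55 for DBA/2J (0.0033). For Gstm5 every AKR/J and DBA/2J array, at 7.54 to 7.99, lay above every C57BL/6J array, at 7.04 to 7.31. The other 4 Gstm genes of the run, Gstm1, Gstm2, Gstm6 and Gstm7, were not called between control livers. The AKR/J calls of Gstm3 and Gstm4 were lost without AKR/J control 3 or C57BL/6J control 3, and that of Gstm4 also without AKR/J control 1 or C57BL/6J control 1. Without the 2 AKR/J controls of conflicting time label the adjusted p was 0.4272 for Gstm3, 0.3528 for Gstm4 and 0.1192 for Gstm5.

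In other GST classes single genes were called between control livers. Gstt3, of the theta class that acts on small halogenated compounds, read 6.56, 6.72 and 6.91 in DBA/2J controls, 7.82, 7.81 and 8.0 in AKR/J controls and 7.58, 7.60 and 7.43 in C57BL/6J controls. The difference was -1.15 ± 0.15 (SE) against AKR/J (adjusted p = 5.060e-05) and -0.81 ± 0.15 against C57BL/6J (0.0018). Its neighbour Gstt1 was lower in DBA/2J than in AKR/J by a smaller step (-0.45, 0.0022; 0.0632 without the 2 AKR/J controls of conflicting time label). Gstp3, of the pi class, read 8.21, 8.07 and 8.07 in DBA/2J controls, 7.58, 7.54 and 7.51 in AKR/J controls and 7.43, 7.29 and 7.07 in C57BL/6J controls. It was higher in DBA/2J by 0.85 against C57BL/6J (3.909e-04) and by 0.57 against AKR/J (0.0153). The call against AKR/J was lost without DBA/2J control 1, AKR/J control 2 or AKR/J control 3 (adjusted p up to 0.3134 over the alternatives). Gstk1, the kappa enzyme of mitochondria and peroxisomes, was lower in DBA/2J, with differences of -0.34 against C57BL/6J (0.0238) and -0.31 against AKR/J (0.0451). The second of these was lost in 18 of 28 alternatives, among them the removal of any 1 of the 3 AKR/J controls (adjusted p from 0.0165 to 0.5747). Gsta3, which in mice detoxifies aflatoxin, was lower in DBA/2J than in C57BL/6J (-0.39, 0.0395).

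The probe sets of Gsto1, an omega-class enzyme that reduces dehydroascorbate, disagreed about AKR/J. By the brighter one, DBA/2J controls (8.84, 8.80 and 8.85) lay below AKR/J (9.38, 9.55 and 9.54) and C57BL/6J (9.26, 9.50 and 9.37). DBA/2J differed by -0.66 ± 0.09 (SE) from AKR/J (adjusted p = 1.184e-04) and by -0.55 from C57BL/6J (7.674e-04). By the other, whose name marks probes that may bind several genes, AKR/J was lower than C57BL/6J as well (-0.96 ± 0.09, 7.255e-07), as was DBA/2J (-1.15, 4.925e-08). By that probe set the DBA/2J controls (7.88, 8.06 and 7.88) overlapped those of AKR/J (8.05, 8.13 and 8.19). The position of AKR/J for Gsto1 thus depended on the probe set.

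The sulfotransferase genes called between control livers were Sult1d1, Sult1c2 and Sult5a1. Sult1d1, which in mice acts on catecholamines, read 7.96, 8.57 and 8.54 in DBA/2J controls, 9.21, 9.38 and 9.18 in AKR/J controls and 10.29, 9.76 and 9.60 in C57BL/6J controls, with no overlap. DBA/2J was lower, with differences of -1.53 ± 0.18 against C57BL/6J (SE; adjusted p = 1.463e-05) and -0.90 ± 0.18 against AKR/J (0.0046; 0.1735 without the 2 AKR/J controls of conflicting time label). AKR/J minus C57BL/6J was -0.63 ± 0.18 (0.0493), a call lost in 15 of 28 alternatives, among them the removal of any 1 AKR/J control (adjusted p from 0.0214 to 0.3462). The second probe set of Sult1d1 gave -1.09 for DBA/2J minus C57BL/6J (3.065e-04).

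Sult1c2 and Sult5a1 ran the other way. Sult1c2, a phenol sulfotransferase, read 6.35, 6.30 and 6.35 in AKR/J controls, 6.36, 6.96 and 6.39 in DBA/2J controls and 5.45, 5.19 and 5.32 in C57BL/6J controls. Both strains lay above C57BL/6J, by 1.01 ± 0.16 (SE; adjusted p = 4.800e-04) and 1.24 ± 0.16 (4.368e-05). Sult5a1 read 7.77, 8.04 and 7.68 in AKR/J controls, 7.71, 7.59 and 7.64 in DBA/2J controls and 7.09, 7.07 and 6.82 in C57BL/6J controls, again the lowest. It was higher than in C57BL/6J by 0.83 ± 0.13 for AKR/J (2.716e-04) and by 0.65 ± 0.13 for DBA/2J (0.0027). Sult1b1 and Sult1e1, which flank Sult1d1 on chromosome 5, were not called between control livers.

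The sleep-deprived arrays are separate pools and give a second set of strain differences. There 9 members were called for AKR/J minus C57BL/6J (20.9%, against 6.45% of all probe sets and 12.5% of genes above the liver median), 18 for DBA/2J minus C57BL/6J (41.9%, against 6.12% and 11.8%) and 9 for DBA/2J minus AKR/J (20.9%, against 5.16% and 9.51%). Without sleep-deprived C57BL/6J array 3 the 18 became 11. The counts called in both sets with the same direction were 6 (66.7% of the sleep-deprived calls and 75.0% of the control calls), 11 (61.1% and 84.6%) and 6 (66.7% and 75.0%). Every control call had the same sign in the sleep-deprived arrays, while over all 43 members the sign was the same for 32, 36 and 32. Some control calls were not called there. These were Gstm3 and Sult1c2 for AKR/J minus C57BL/6J and Gsta3 and Ugt2b38 for DBA/2J minus C57BL/6J. For DBA/2J minus AKR/J they were Gstp3 and Sult1d1. The largest steps there were Ugt3a2 (-6.69 for AKR/J minus C57BL/6J and 6.63 for DBA/2J minus AKR/J), Sult1d1 (-1.25 in AKR/J and -1.51 in DBA/2J against C57BL/6J), Gsta4 (1.42 and 1.00 against C57BL/6J) and Sult5a1 (1.24 in AKR/J against C57BL/6J). Sult1c2 was 1.46 higher in DBA/2J than in C57BL/6J and 1.02 higher than in AKR/J. Gstp3 (0.87) and Gstm3 (0.81) were higher in DBA/2J than in C57BL/6J. Gstt3 (-0.91), Gsto1 by its brighter probe set (-0.57) and Sult5a1 (-0.55) were lower in DBA/2J than in AKR/J. By the other probe set of Gsto1 the sleep-deprived arrays of these strains overlapped (AKR/J, 7.98 to 8.18; DBA/2J, 8.02 to 8.10). Called in the sleep-deprived set alone were Gstt2, Ugt2b1 and Gstp1 against C57BL/6J in both strains, and Ugt2b36, Ugt3a1 and Sult1b1 in DBA/2J. Ugt2a3 was called there for DBA/2J against both other strains. Sult1c2 and Sult5a1 were called for DBA/2J minus AKR/J in the sleep-deprived set and not in controls. Gstt2 differed from C57BL/6J by 1.02 in AKR/J (adjusted p = 2.034e-06) and 0.71 in DBA/2J (1.616e-04). Ugt2b1 differed by 0.53 in AKR/J (adjusted p = 0.0074) and by 0.72 in DBA/2J (4.830e-04).

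**Figure D3:**
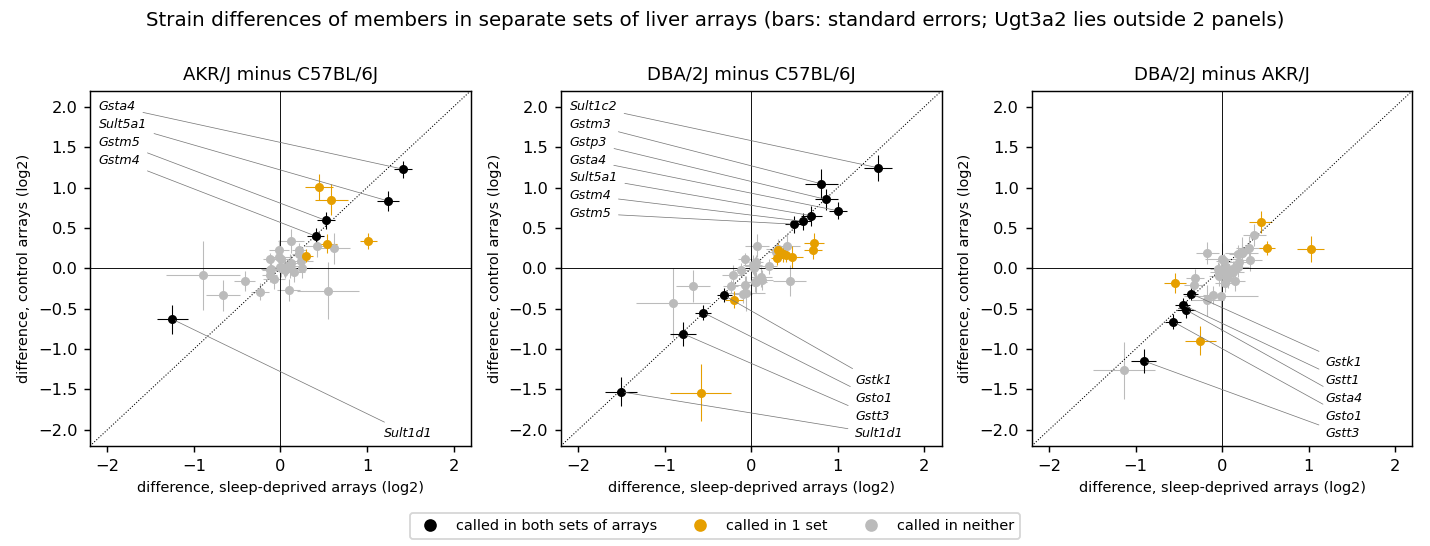
Strain differences of the 43 members in sleep-deprived arrays (x, log2) and in control arrays (y, log2), with standard errors and a dotted line of equality; black points were called in both sets. The named points lie in the lower left and upper right, and Ugt3a2 (beyond -6 and 6) is outside 2 of the panels.

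Markers of Kupffer cells and leukocytes moved with strain. In AKR/J controls 4 of 8 (Adgre1, Ptprc, Csf1r and Lyz2) were lower than in C57BL/6J and 0 were higher. Of all probe sets, 2.07% were lower and 3.02% higher. The mean level of the list was 6.42 to 6.85 in AKR/J controls, 7.04 to 7.52 in DBA/2J controls and 7.0 to 7.22 in C57BL/6J controls. Their part in the AKR/J differences was not tested. Of 9 hepatocyte markers, 1 (Pck1) was lower in AKR/J than in C57BL/6J controls, and limma called 0 between DBA/2J and C57BL/6J controls, with 4 at an unadjusted p under 0.05. Of 5 endothelial markers, Lyve1 was lower than in C57BL/6J controls in AKR/J (-0.78) and DBA/2J (-0.91), and of 5 stellate cell markers, Lrat was (-0.88 and -1.32). These single genes did not stand for their lists. The median difference from C57BL/6J was -0.21 in AKR/J and 0.04 in DBA/2J for the endothelial list. For the stellate list it was 0.13 and -0.35. The stellate list averaged 5.84 to 6.07 in AKR/J controls, 5.47 to 5.70 in DBA/2J controls and 5.92 to 6.00 in C57BL/6J controls. Of 4 pancreas and gut markers, Cela1 was higher in AKR/J (1.31) and DBA/2J (1.69) and Fabp2 in DBA/2J (0.70), as was Alas2, 1 of 2 red blood cell markers, in DBA/2J (0.71). The median difference of the pancreas and gut list was -0.10 in AKR/J and 0.32 in DBA/2J. The part of these cells in the strain differences was not tested either. One liver array stood apart in RNA quality, DBA/2J control 1, with a log2 excess of 3′ over 5′ actin signal of 2.16, while the other 17 had 0.96 to 1.45. The count of calls for DBA/2J minus C57BL/6J did not move by over 1.5 times without it.

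The second question was what 6 h without sleep did to these genes in liver. Averaged over the 3 strains, 6 of 43 members were called (14.0%), against 3.60% of all probe sets and 7.06% of genes above the liver median. Without the 2 AKR/J controls of conflicting time label the count was 3. Of the 6, 3 fell (Ugt2b35, Sult1c2 and Gstt2; 1.21% of all probe sets fell) and 3 rose (Gstm2, Gstp3 and Gstm7; 2.40% rose). The median effect of members was 0.00, against -0.01 over all probe sets. By family the calls were 1 of 10 UGT, 4 of 20 GST and 1 of 13 SULT genes.

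Ugt2b35 fell in all 3 strains. In livers of AKR/J it read 9.95, 9.92 and 10.18 after sleep deprivation, against 10.92, 11.15 and 10.87 in controls. In DBA/2J livers it read 10.11, 10.55 and 10.35, against 11.24, 11.05 and 10.95 in controls, and in C57BL/6J livers 10.15, 10.20 and 9.75, against 10.73, 10.89 and 10.92. All 9 sleep-deprived arrays lay below all 9 controls. The mean effect was -0.84 ± 0.08 (SE; adjusted p = 2.469e-06), a 1.79-fold fall, and it was called under all 28 alternatives. In single strains it was -0.97 for AKR/J (7.917e-04), -0.74 for DBA/2J (0.0133) and -0.81 for C57BL/6J (0.0044). In DBA/2J the call was lost without control 1 (-0.66, 0.0748) or without sleep-deprived array 1 (-0.63, 0.0919), and in AKR/J without the 2 controls of conflicting time label (-0.91, 0.0898). The interaction of Ugt2b35 with strain had an adjusted p of 0.9143.

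Ugt2b1 and Ugt2b36, shown above with their upstream sequences, did not pass, and neither did the other Ugt2b genes of the run. Ugt2b37 and Ugt2b38 were measured less precisely. The standard error of the AKR/J minus C57BL/6J difference in effect was 0.60 and 0.50 for them, against 0.19 for Ugt2b35. Mean effects were -0.05 ± 0.07 (SE) for Ugt2b1, -0.08 ± 0.05 for Ugt2b36, -0.14 ± 0.05 for Ugt2b5 and -0.17 ± 0.06 for Ugt2b34, with adjusted p of 0.8078, 0.4794, 0.2028 and 0.1769. Whether the effect of Ugt2b35 differs from those of the other Ugt2b genes was not tested. Ugt2b35 was measured by 1 probe set.

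**Figure D4:**
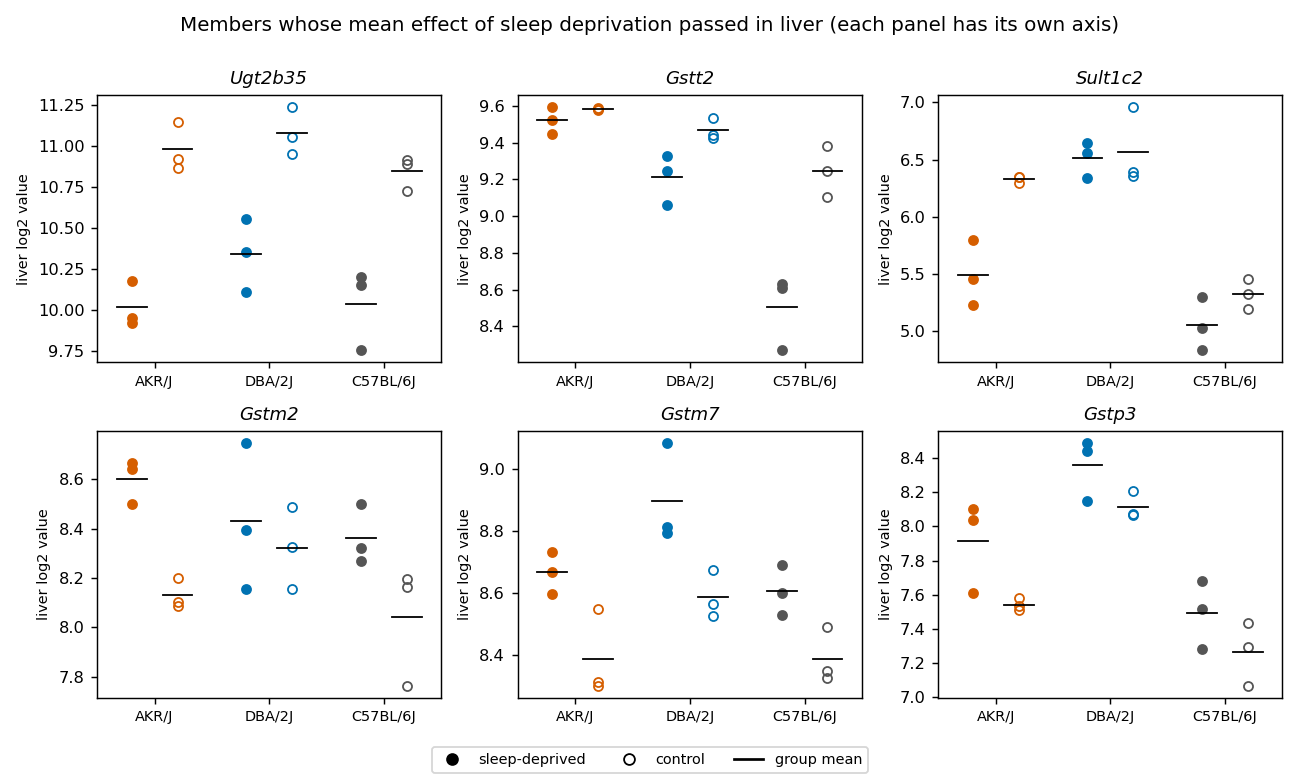
Liver log2 values of the 6 members called for sleep deprivation, 1 point per array (filled, sleep-deprived; open, control), with group means as lines; each panel has its own axis. Ugt2b35 is lower in the sleep-deprived arrays of all 3 strains, whereas the gap of Gstt2 is widest in C57BL/6J and that of Sult1c2 in AKR/J.

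Gstt2, a theta-class enzyme, fell by 0.35 ± 0.06 (SE) in the mean of strains (adjusted p = 0.0016). In C57BL/6J it read 8.63, 8.61 and 8.27 after sleep deprivation, against 9.25, 9.38 and 9.10 in controls, and the effect there was -0.74 ± 0.10 (9.432e-04). In DBA/2J it was -0.26 (0.2958), with values of 9.33, 9.06 and 9.25 against 9.43, 9.54 and 9.44 in controls. In AKR/J it was -0.06 (0.9255). Gstt2 had the smallest interaction p of the members, yet its adjusted p was 0.2721, so a difference between strains did not pass the test.

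Sult1c2 fell by 0.39 ± 0.09 (SE; adjusted p = 0.0220). In AKR/J it read 5.45, 5.80 and 5.22 after sleep deprivation, against 6.35, 6.30 and 6.35 in controls (-0.84, 0.0147). The AKR/J call was lost without any 1 of the 3 AKR/J controls or without sleep-deprived array 1 or 3 (adjusted p up to 0.3068), and the mean effect was not called without the 2 controls of conflicting time label (0.0902). The effect was -0.05 in DBA/2J and -0.27 in C57BL/6J, neither called, and the interaction had an adjusted p of 0.5695.

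The 3 that rose changed little. Gstm7 rose by 0.27 ± 0.06 (SE; adjusted p = 0.0092), with 8.67, 8.73 and 8.60 in sleep-deprived AKR/J, against 8.31, 8.30 and 8.55 in controls, and no overlap in any strain. Its second probe set gave 0.03 (0.8796), and the mean of both was not called (0.0755). Gstm2 read 8.64, 8.50 and 8.66 in sleep-deprived AKR/J, against 8.09, 8.10 and 8.20 in controls, its widest gap, while its DBA/2J groups overlapped. Gstm2 rose by 0.30 ± 0.08 (0.0402) and Gstp3 by 0.28 ± 0.08 (0.0499), but these calls were lost in 16 and 18 of 28 alternatives (highest adjusted p 0.1125 and 0.1819). Leaving out any 1 of the 3 AKR/J controls ended both.

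In single strains, calls were 2 of 43 in AKR/J (0.711% of all probe sets), 1 in DBA/2J (0.628%) and 2 in C57BL/6J (0.615%). Beside those given, the smallest p values were for Gstm2 in AKR/J (0.47, adjusted p = 0.1593), Gstm7 and Sult1d1 in DBA/2J (0.31, 0.1678 and 0.47, 0.2706) and Sult1a1 in C57BL/6J (0.37, 0.3150). The interaction of strain and sleep deprivation was called by limma for 0 of 43 members, against 0.0333% of all probe sets, and 3 members had an unadjusted p under 0.05. With array weights it was also 0. Beside Gstt2 and Sult1c2 these included Sult1d1, at -0.18 for AKR/J, 0.47 for DBA/2J and 0.44 for C57BL/6J (adjusted p = 0.7076). In the same livers 2 of 5 endothelial markers, Lyve1 (0.99) and Pecam1 (0.42), were higher after sleep deprivation. So were 2 of 9 hepatocyte markers, Tat (0.83) and Pck1 (0.49), against 2.40% of all probe sets. The median difference of the 9 hepatocyte markers was 0.01. Of 8 Kupffer and leukocyte markers, Cd79a was lower and 0 were higher. The endothelial list averaged 6.21 to 6.28 in sleep-deprived AKR/J, 6.26 to 6.58 in sleep-deprived DBA/2J and 6.35 to 6.50 in sleep-deprived C57BL/6J, against 5.76 to 6.15, 5.98 to 6.17 and 6.09 to 6.18 in their controls. The part of these cells in the changes was not tested.

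Genes of the supply and turnover of the co-substrates were followed through lists chosen with earlier results of these data known. A higher signal of such a gene is therefore not by itself a sign of more co-substrate. Of all probe sets, 3.02% were higher and 2.07% lower in AKR/J than in C57BL/6J control livers. The shares were 3.34% and 2.23% for DBA/2J minus C57BL/6J and 2.30% and 1.91% for DBA/2J minus AKR/J. With sleep deprivation 2.40% rose and 1.21% fell. For glucuronidation, 2 of 6 measured genes of UDP-glucuronic acid supply and deconjugation fell with sleep deprivation and 0 rose: Ugdh, which makes UDP-glucuronic acid (-0.37 ± 0.06, SE, adjusted p = 0.0012), and Slc35d1, which carries it into the endoplasmic reticulum (-0.40 ± 0.07, 0.0015). Among controls, Ugdh, Slc35d1 and the deconjugating enzyme Gusb were higher in AKR/J and DBA/2J than in C57BL/6J (Ugdh by 0.40 and 0.51, Slc35d1 by 0.45 and 0.53, Gusb by 0.62 and 0.50), while Ugp2 was lower in DBA/2J than in C57BL/6J (-0.45).

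For glutathione supply and turnover, limma called 0 of 11 measured genes with sleep deprivation (3 at an unadjusted p under 0.05), and 4 were higher in AKR/J than in C57BL/6J controls with 0 lower. They were both subunits of glutamate-cysteine ligase, Gclc (0.76) and Gclm (0.68), glutathione synthetase Gss (0.47) and glutathione reductase Gsr (0.57). In DBA/2J against C57BL/6J 1 was higher (Chac1, 0.73) and 2 were lower (Mat1a, -0.60, and Gclm, -0.49), and against AKR/J 2 were lower (Gclm, -1.17, and Gss, -0.34). For sulfonation, the PAPS-making enzyme Papss2 was lower in DBA/2J controls (-0.96 against C57BL/6J, 5.571e-06, and -0.94 against AKR/J, 7.318e-06), as was the sulfate carrier Slc26a1 against C57BL/6J (-0.96). The Golgi PAPS carrier Slc35b2 fell with sleep deprivation (-0.27, 0.0023), the 1 call among 7 genes measured, and among AKR/J controls it was higher (0.32) and Bpnt1 lower (-0.58) than in C57BL/6J.

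Of 7 other glutathione transferases, 2 were higher in DBA/2J controls and 0 lower, Mgst3 by 1.76 against C57BL/6J and 1.67 against AKR/J, and Gstcd by 0.71 and 0.55. Of 7 conjugate exporters, 2 were lower in DBA/2J than in C57BL/6J and 0 higher, Abcc2, which exports conjugates into bile (-0.73), and Abcc6 (-0.71). Abcc6 was also the 1 exporter called against AKR/J (-0.96). Among 12 measured regulators, the xenobiotic receptor gene Nr1i2 (0.56, 0.0016) and Hnf4a (0.23, 0.0362) rose with sleep deprivation and Esr1 fell (-0.32, 0.0462). The 8 NRF2 and AHR target genes gave 0 calls in limma for the 3 control comparisons and the mean effect of sleep deprivation, with 0 to 2 at an unadjusted p under 0.05. Genes of these lists were also called between control brains. Mgst3, Gstcd and Gsr were higher in DBA/2J than in C57BL/6J (0.802% of all probe sets), and Gsr was higher in AKR/J (0.924%). Against AKR/J, DBA/2J was higher for Gstcd (0.766%) and lower for Gclm (0.819%).

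Brain served as the contrast. No member was called by limma between control brains, in AKR/J minus C57BL/6J (0 of 43, against 2.00% of all probe sets, with 4 at an unadjusted p under 0.05), DBA/2J minus C57BL/6J (0, 1.90%, 5) or DBA/2J minus AKR/J (0, 1.59%, 2). The mean effect of sleep deprivation in brain gave 0 calls too (1.73%, with 7 at an unadjusted p under 0.05). So did sleep deprivation in AKR/J (0.300%, 3), DBA/2J (0.104%, 4) and C57BL/6J (0.0377%, 1). With array weights the counts for the 3 strain differences and the mean effect were 4, 4, 2 and 6. Gsta4 in AKR/J minus C57BL/6J came nearest among control strains, with 8.65, 8.53 and 8.63 in AKR/J controls, against 8.22, 8.21 and 8.21 in C57BL/6J controls (0.39 ± 0.11, SE, adjusted p = 0.1154). It was called with array weights (0.41), after quantile normalisation (0.36) and without the 5 brain arrays that stood apart in spread or RNA quality (0.39). Gstz1, which also breaks down tyrosine as maleylacetoacetate isomerase, had the smallest p for sleep deprivation (-0.32 ± 0.09, adjusted p = 0.0758). Among sleep-deprived brains, 1 member was called for DBA/2J minus AKR/J (1.56% of all probe sets), the cholesterol sulfotransferase Sult2b1 (-0.55, 0.0160), which read 5.91, 5.65 and 5.91 in DBA/2J and 6.60, 6.27 and 6.26 in AKR/J.

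Tests of liver minus brain changes asked whether the tissues differed. The effect of sleep deprivation differed for 2 of 43 members (1.38% of all probe sets), Ugt2b35 by -0.80 ± 0.09 (SE; adjusted p = 1.263e-06) and Gstm7 by 0.43 ± 0.11 (0.0313). Gstm7 changed by 0.27 in liver and by -0.16 in brain (not called), and its call was lost in 17 of 48 alternatives, most of them the removal of 1 array (highest adjusted p 0.1837, without the 5 brain arrays that stood apart). Strain differences of controls differed between tissues for 5 members in AKR/J minus C57BL/6J (2.07%), 7 in DBA/2J minus C57BL/6J (2.57%) and 3 in DBA/2J minus AKR/J (1.97%). Gstm5, whose brain signal is well above the tissue median, illustrates this: AKR/J minus C57BL/6J was 0.59 in liver and -0.10 in brain, a difference of 0.69 ± 0.13 (0.0015). For Ugt2b35, Ugt3a2, Ugt2b38, Sult1c2, Sult1d1 and Gstt3 the brain signal lay below the brain median, where a change can hardly be seen.

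**Figure D5:**
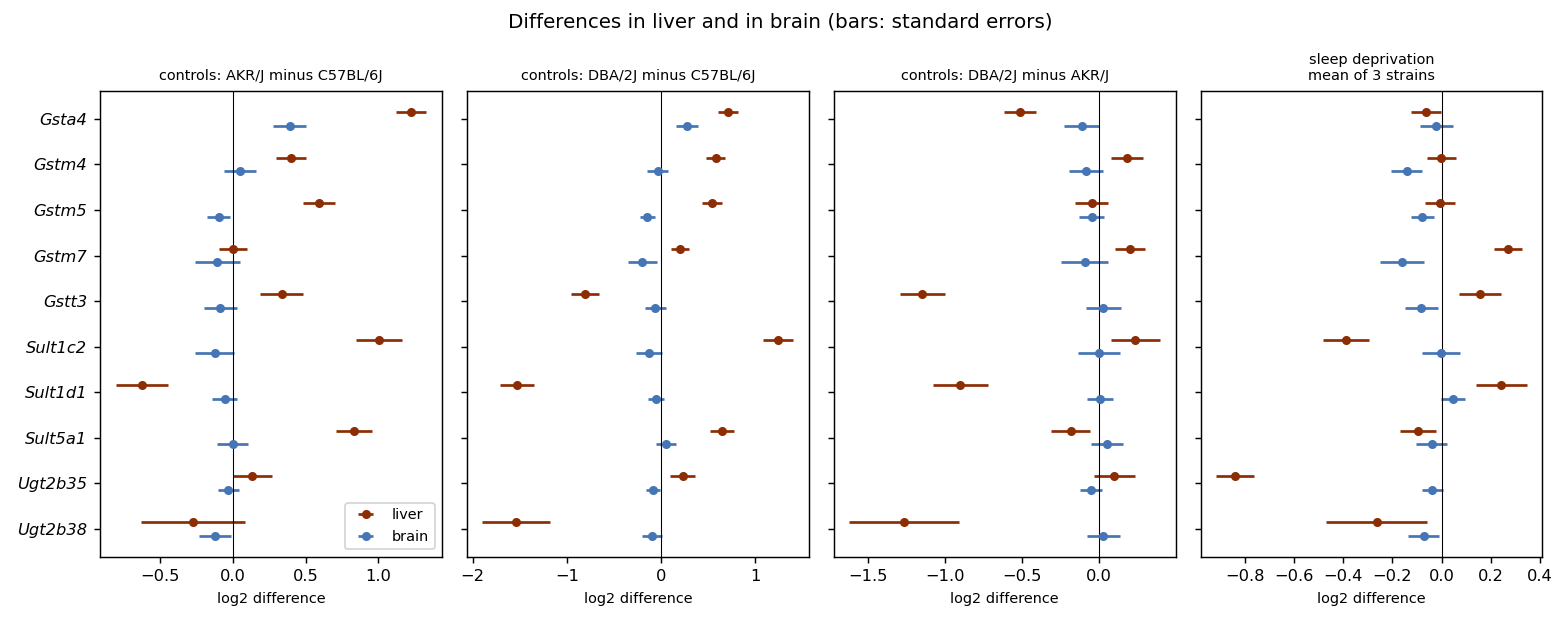
Log2 differences with standard errors of 10 members in liver (brown) and brain (blue) for 3 strain differences of controls and for the mean effect of sleep deprivation; each panel has its own x axis. Liver points lie away from 0 in several rows, such as Gstm5 at 0.59 and Ugt2b35 at -0.84, while the brain points stay near 0 and the brain point of Gsta4 lies at 0.39.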

How the data were processed

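The authors deposited log2 values computed by RMA according to the submitters' processing notes (version not given in the sources used here). Changes of dim probe sets are compressed by this method. Values were used as deposited. Of 45101 probe sets, 64 controls were left out and 45037 tested; 34945 had 1 gene symbol, 932 several and 9160 none. For each tissue, limma 3.58.1 (R 4.3.3) fitted a mean for each of 6 groups to 18 arrays; liver minus brain changes came from a fit of all 36. P-values are two-sided and adjusted by the Benjamini-Hochberg method over all probe sets, with a threshold of 0.05; differences are on the log2 scale with limma's standard errors (n = 3 arrays per group). The fits were tested on simulated data. Sequences were read from RefSeq tables of GRCm38.p6.

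Among AKR/J controls, replicates 2 and 3 of both tissues (4 arrays) have Zeitgeber time 0 in the source name and 6 in the title. They were kept as controls and left out as an alternative. Other alternatives were array centring, quantile normalisation, array weights, a variance trend, a filter on dim probe sets, other probe sets of a gene, a replicate block and leaving out each array. Removal of liver DBA/2J control 1 was run as an alternative of its own and again among the single arrays. Counts of alternatives therefore hold it 2 times. The removal of 5 brain arrays together was chosen after seeing the data.

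Members, although taken by name, and gene lists were chosen with earlier results of these data known. Named with values were the 8 largest called members of each control strain difference in liver, the 5 largest of each sleep-deprived one, all called for sleep deprivation, the 3 smallest p of each single-strain effect and of the interaction, the 5 largest called in brain and 3 between tissues, the 3 brightest of each family in liver and up to 3 called members of each list. Other called genes named (such as Gsta3, Gstm5 in DBA/2J and further list members) and the brain probe sets and near misses given were chosen after their values were seen.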

Additional observations from a re-analysis of the deposited data

Results flagged for a closer look

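Each result here was singled out because a change differed between liver and brain in limma's test of that difference; values are liver change minus brain change on the log2 scale. For sleep deprivation these were Ugt2b35 (-0.80, adjusted p = 1.263e-06) and Gstm7 (0.43, 0.0313).

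For AKR/J minus C57BL/6J controls they were Ugt3a2 (-6.96, adjusted p = 2.002e-18), Sult1c2 (1.13, 0.0018), Sult5a1 (0.84, 0.0026), Gsta4 (0.84, 0.0011) and Gstm5 (0.69, 0.0015). For DBA/2J minus C57BL/6J controls they were Sult1d1 (-1.48, 1.705e-05), Ugt2b38 (-1.44, 0.0490), Sult1c2 (1.37, 1.198e-04), Gstt3 (-0.75, 0.0282), Gstm5 (0.69, 0.0013), Gstm4 (0.62, 0.0165) and Sult5a1 (0.60, 0.0457). For DBA/2J minus AKR/J controls they were Ugt3a2 (6.56, 1.797e-17), Gstt3 (-1.17, 2.430e-04) and Sult1d1 (-0.91, 0.0121). The call of Ugt2b38 was lost in 32 of 47 alternatives. For Ugt2b35, Ugt3a2, Ugt2b38, Sult1c2, Sult1d1 and Gstt3 the brain signal lay below the brain median, where a change can hardly be seen.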

How the results depend on the processing

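No named result changed direction; of 2115 values of named results under alternatives, 1954 stayed on their side of the threshold and 161 lost their call. With array weights, member calls rose in brain to 4 (AKR/J minus C57BL/6J), 4 (DBA/2J minus C57BL/6J), 2 (DBA/2J minus AKR/J) and 6 (sleep deprivation), and for liver minus brain to 9, 12, 5 and 6 in the same order. Quantile normalisation gave 1, 1 and 2 brain calls (AKR/J minus C57BL/6J, DBA/2J minus C57BL/6J and sleep deprivation), and leaving out the 5 brain arrays that stood apart gave 1 for AKR/J minus C57BL/6J and 2 for sleep deprivation. Without dim probe sets, brain sleep deprivation gave 1 call and liver minus brain 3, 3, 0 and 1, since dim members were no longer tested. Without the AKR/J controls of conflicting time label, liver calls fell to 4 (AKR/J minus C57BL/6J), 3 (DBA/2J minus AKR/J), 3 (mean sleep deprivation) and 0 (sleep deprivation in AKR/J), and liver minus brain to 2 (AKR/J minus C57BL/6J), 1 (DBA/2J minus AKR/J) and 1 (sleep deprivation), with 1 AKR/J control per tissue left. Without liver DBA/2J control 1, sleep deprivation in DBA/2J gave 0 calls and liver minus brain for DBA/2J minus C57BL/6J gave 3. Leaving out 1 array at a time gave 5 to 8 calls for liver AKR/J minus C57BL/6J, 11 to 19 for sleep-deprived DBA/2J minus C57BL/6J, 1 to 2 for sleep deprivation in AKR/J, 0 to 1 in DBA/2J, 3 to 9 for liver minus brain in DBA/2J minus C57BL/6J and 1 to 3 in sleep deprivation, and 0 to 1 in brain for AKR/J minus C57BL/6J and for sleep deprivation. The lowest of the first came without AKR/J control 3, and the lowest of the second without sleep-deprived C57BL/6J array 3. The causes were not tested. Samples share only their replicate numbers: deviations of same-numbered liver arrays correlated between -0.16 and 0.22, and those of brain arrays between -0.56 and 0.61. With the replicate block, liver calls were 7, 12 and 9 for the 3 control strain differences and 5 for mean sleep deprivation. Dim signal limits the brain comparisons of UGT genes, all 10 of which lay below the brain median. The same limit holds for the other members below it, 25 of 43 in all with the UGT genes.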
